A study of Mus musculus with 28 samples.

Results

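The genes described here are the enzymes of phase II conjugation: the glutathione S-transferases (GST), the UDP-glucuronosyltransferases (UGT) and the sulfotransferases (SULT). They were chosen by symbol alone, as every gene named Gsta, Gstk, Gstm, Gsto, Gstp, Gstt, Gstz, Mgst, Ugt1a, Ugt2a, Ugt2b, Ugt3a or Sult with a member number. This rule found 65 of the 36072 gene symbols in the count tables: 22 cytosolic and kappa GST genes, 3 microsomal GST genes, 19 UGT genes and 21 SULT genes. RNA was measured in whole liver from 14 mice by prime-seq, an RNA-seq method that tags transcripts near their 3′ ends. The sample labels do not give the sex of these mice. The paper describes its main groups on 12 weeks of diet as female, and it also compared livers of male mice. All mice lacked Apoe, the apolipoprotein that clears remnant lipoproteins, and all were fed a cholesterol-rich high-fat diet for 12 weeks, starting at 8 weeks of age. The control group was 7 Apoe-/- mice (called WT in the labels) and the other group 7 Mif-2-/-Apoe-/- littermates (called DKO), which also lack MIF-2, the MIF-family cytokine encoded by Ddt. The Mif-2 deletion was global, not limited to the liver, and neither group had Apoe. The comparison asks what loss of Mif-2 changes in the liver transcriptome of hyperlipidemic mice.

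Phase II enzymes attach a polar group to drugs, bile acids, steroids, bilirubin and lipid peroxidation products, so that the conjugate can be exported into bile or blood. GST enzymes add glutathione, UGT enzymes in the endoplasmic reticulum add a sugar from a UDP-sugar, and SULT enzymes in the cytosol add sulfate from the donor PAPS. Hepatocytes are the main site of these reactions, and many of the genes are controlled by NRF2, CAR, PXR, AHR or the sex-dependent pattern of growth hormone.

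The 2 libraries of each mouse were summed, which gave 1336787 to 2715022 counts per mouse, of which the 65 genes held 0.325 to 0.931%. These counts include rRNA and mitochondrial genes, which held from 19.6% in Mif-2-/-Apoe-/- mouse 4 to 54.5% in Mif-2-/-Apoe-/- mouse 2. Mouse 2 was also the one with the 0.325%. Levels are given as CPM, each count relative to the TMM-scaled library size of its mouse, and a fold change is Mif-2-/-Apoe-/- over Apoe-/- on the log2 scale as fitted by edgeR. A call is a Benjamini-Hochberg adjusted p below 0.05 in the edgeR quasi-likelihood F test, adjusted over all 9684 genes tested. Hepatocyte markers summed to 32803 to 55370 CPM in every mouse. Several livers stood apart. Mif-2-/-Apoe-/- mice 4 and 6 had Saa2, an acute-phase gene, at 25424 and 7143 CPM (at most 576 in the others), and mouse 3 had 4762 CPM of skeletal muscle genes (at most 35.5 in the others). The number of mice limits the precision, since each p-value weighs the group difference against the spread between these mice. That spread is estimated with help from all genes tested. In whole liver, fewer cells of a type and less RNA per cell cannot be told apart.

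Of the 65 genes, 41 had a mean of at least 10 counts per mouse and 39 passed the low-count filter of the test. Gsta1 and Sult2a7 had such a mean but were high in too few mice to pass. In the comparison, 1 of the 39 tested genes (2.56%) was called, against 0.217% of all genes. This gene was the theta-class transferase Gstt3, which fell, and 0.0826% of all genes were called in that direction. It was also the 1 of the 39 whose groups did not overlap, against 0.279% of all genes. At an unadjusted p below 0.05 there were 5 of 39 (12.8%), and 12.9% of all genes reached that level. These 5 were Gstt3, Sult3a1, Gstm3, Gstm2 and Gsta2, all with negative fold changes, and 5.49% of all genes had both. A negative fold change was found for 24 of the 39 (61.5%), against 48.5% of all genes, and the median fold change was -0.08 beside 0.01 for all genes tested. The split by family was uneven. The fold change was negative for 13 of 19 cytosolic and kappa GST genes (median -0.07), for 0 of 2 microsomal GST genes (median 0.11), for 4 of 10 UGT genes (median 0.03) and for 7 of 8 SULT genes (median -0.33). When counts were scaled by library totals alone, which moved the median of all genes to -0.10, 31 of the 39 were negative. The split also moved with single mice left out, to 21 of 39 without Apoe-/- mouse 2 and 27 of 39 without Mif-2-/-Apoe-/- mouse 7. Without Apoe-/- mouse 2, 3 of 39 had an unadjusted edgeR p below 0.05, where 14.9% of all genes reached that level.

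**Figure D1:**
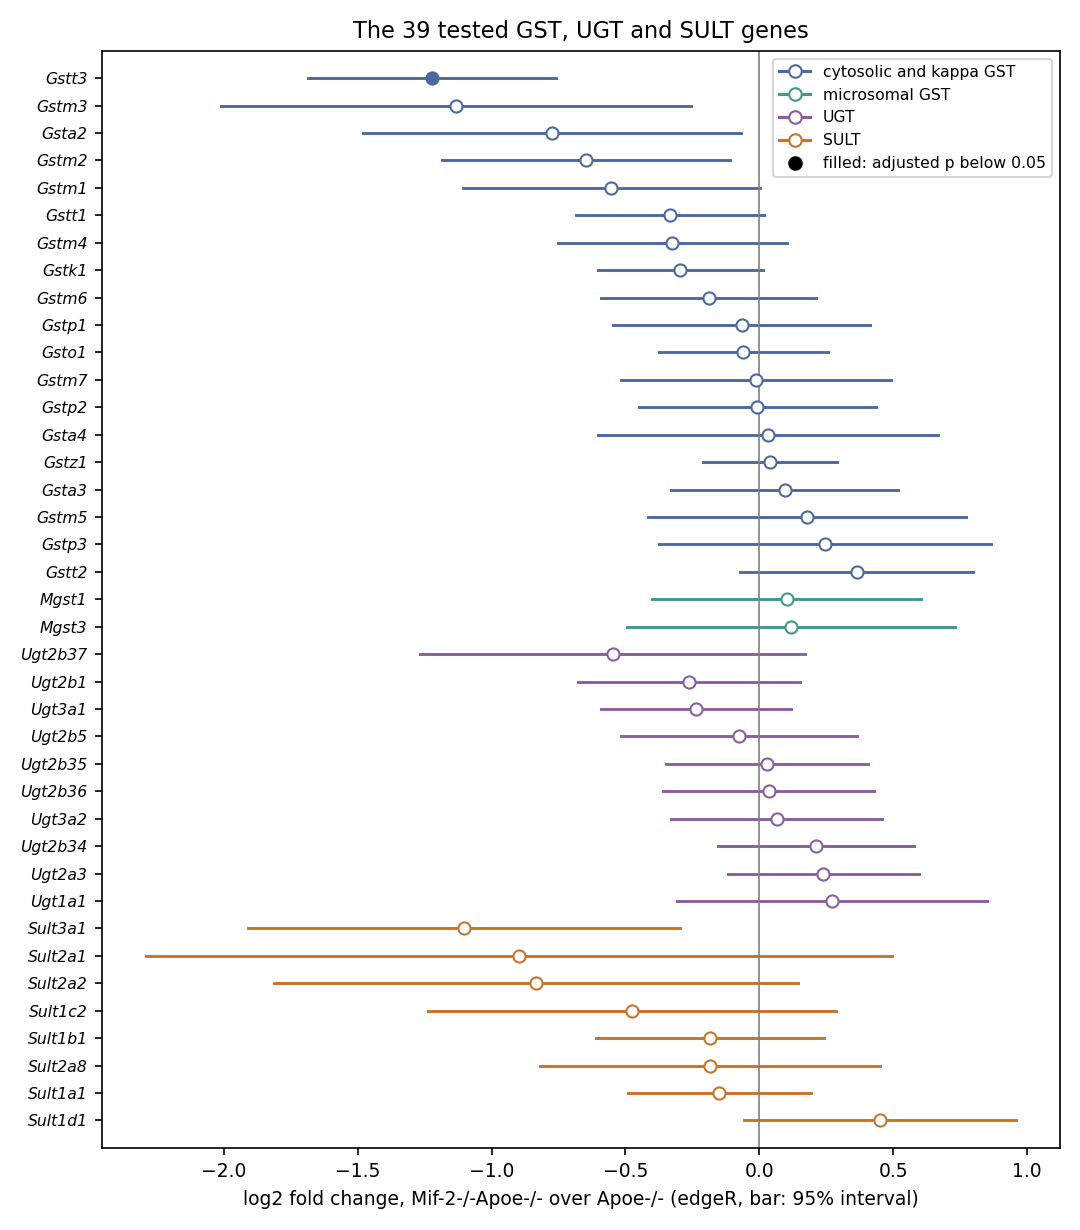
Log2 fold change of each of the 39 tested genes, Mif-2-/-Apoe-/- over Apoe-/- (edgeR, bars give the 95% interval, n = 7 mice per group), coloured by family. The filled point is Gstt3 at -1.22, and the intervals of the other genes with an unadjusted p below 0.05 (Gstm3, Gsta2, Gstm2 and Sult3a1) also lie below 0.

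The theta class, whose enzymes act on small halogenated compounds and organic hydroperoxides, lies next to Ddt on mouse chromosome 10 (mm10, minus strand). Ddt spans 75771230 to 75773414 and the 3′ end of Gstt3 (75774115 to 75781414) lies 701 bases upstream of its start. Gstt1 (75783813 to 75798584), Gstt4 (75814943 to 75822543) and Gstt2 (75831114 to 75837424) follow in the same orientation. The sequences upstream of Ddt and Gstt3 are shown because these neighbours are the pair in this region whose transcripts fell. The Ddt window (chr10:75773375-75773624, minus strand) ends 491 bases before Gstt3. The Gstt3 window (chr10:75781415-75781664, minus strand) is 1 of 2 that RefSeq gives for this gene, the other starting 8 bases further upstream. Both are 250 bases before the gene's start in RefSeq (GRCm38.p6). Capitals mark CCAAT boxes (CCAAT, either strand) and, in Ddt, a GC box (GGGCGG, either strand), none overlapping another.
Ddt: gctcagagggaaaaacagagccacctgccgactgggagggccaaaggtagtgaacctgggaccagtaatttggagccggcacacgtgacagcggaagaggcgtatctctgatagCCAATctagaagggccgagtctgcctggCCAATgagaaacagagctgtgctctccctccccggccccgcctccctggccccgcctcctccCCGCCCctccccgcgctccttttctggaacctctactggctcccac
Gstt3: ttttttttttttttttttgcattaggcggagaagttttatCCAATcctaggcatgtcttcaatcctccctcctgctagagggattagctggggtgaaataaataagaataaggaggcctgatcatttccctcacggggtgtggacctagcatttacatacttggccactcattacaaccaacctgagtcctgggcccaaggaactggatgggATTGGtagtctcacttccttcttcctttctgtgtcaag
RefSeq gave such a window for 57 of the 65 genes. Some genes have several windows, so shares are given per gene. A CCAAT box was in the windows of 21 of these 57 genes (36.8%) and of 37.5% of all genes with a window of this length. A GC box was in those of 15 (26.3%) and of 35.4% of all such genes. Of the 32851 single windows, 33.8% held a CCAAT box and 32.7% a GC box.

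Ddt itself had 59.1, 107 and 128 CPM (lowest, median and highest) in the Apoe-/- mice and 2.84, 3.83 and 8.61 CPM in the Mif-2-/-Apoe-/- mice, and fell by 4.50 on the log2 scale (SE 0.23; edgeR adjusted p = 3.12e-11). No mouse went against its genotype label at this gene. Gstt3 had 11.3, 16.7 and 25.7 CPM in the Apoe-/- mice and 5.33, 6.89 and 10.1 CPM in the Mif-2-/-Apoe-/- mice. All 7 Mif-2-/-Apoe-/- mice lay below every Apoe-/- mouse, with Apoe-/- mouse 3 and Mif-2-/-Apoe-/- mouse 3 nearest to each other. The means were 17.4 ± 5.41 and 7.53 ± 1.73 CPM (SD, n = 7 each), and the log2 fold change was -1.22 (SE 0.22, 95% interval -1.68 to -0.76; edgeR adjusted p = 0.0183). The tags behind these values numbered 16 to 69 in each Apoe-/- mouse and 6 to 20 in each Mif-2-/-Apoe-/- mouse. Each set of libraries gave the same direction. Scaled by library totals, the means were 16.9 and 6.62 CPM in the first library of each mouse and 18.7 and 7.55 CPM in the duplicate, with 5 and 7 Mif-2-/-Apoe-/- mice below every Apoe-/- mouse. The last 400 bases of the longest Gstt3 transcript shared no 50-base window with another gene, so tags from that end can be told from those of its paralogs. The ends of other Gstt3 transcripts were not checked.

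The call rested on few counts and was lost in several fits. It ended without Apoe-/- mouse 4 (-1.14, edgeR adjusted p = 0.0661), without Mif-2-/-Apoe-/- mouse 6 (-1.20, adjusted p = 0.0527) and without Mif-2-/-Apoe-/- mouse 7 (-1.18, adjusted p = 0.0561), and held in the other 11 of 14 fits that left out 1 mouse (-1.32 to -1.09). In every fit that tested Gstt3 its unadjusted p stayed below 0.05.

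**Figure D2:**
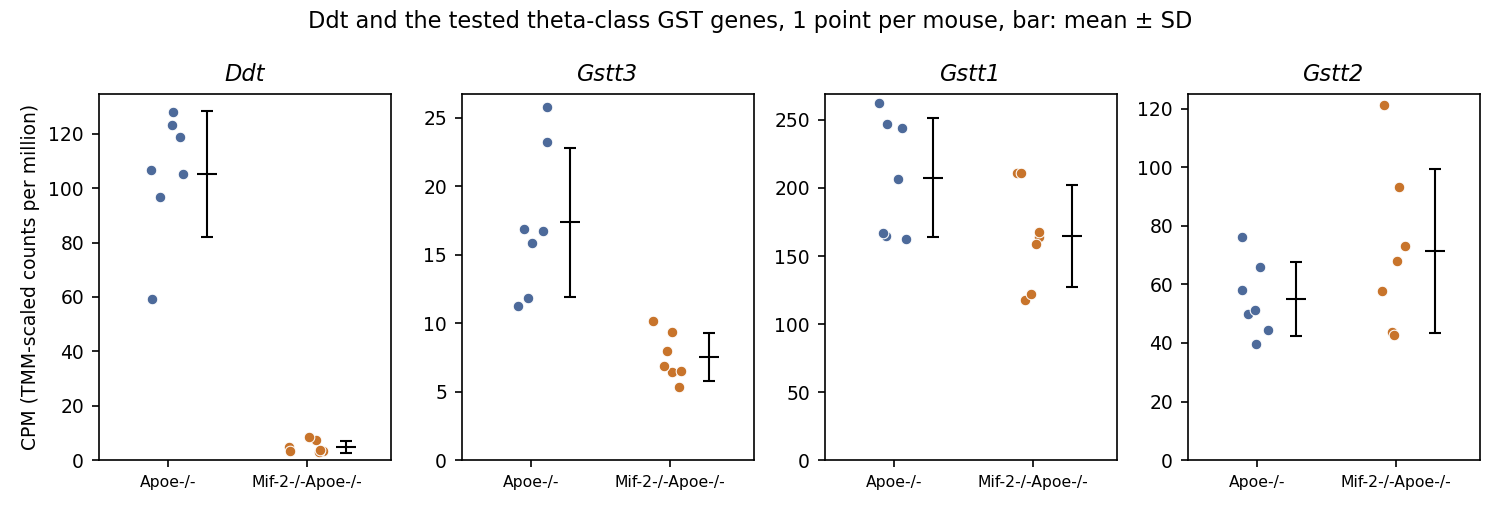
CPM of Ddt, Gstt3, Gstt1 and Gstt2 in each mouse (points) with the mean ± SD of the 7 mice per group. The groups are apart for Ddt and Gstt3, at most 8.61 and 10.1 CPM in Mif-2-/-Apoe-/- mice against at least 59.1 and 11.3 CPM in Apoe-/- mice, and overlap for Gstt1 and Gstt2.

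The other theta genes did not pass the test. Gstt1, the most abundant of them, had 163, 207 and 262 CPM in the Apoe-/- mice and 117, 164 and 211 CPM in the Mif-2-/-Apoe-/- mice. The groups overlapped, with 3 Mif-2-/-Apoe-/- mice (2, 4 and 6) below the whole control range, and the log2 fold change was -0.33 (SE 0.17, 95% interval -0.68 to 0.02; edgeR adjusted p = 0.398). Gstt2 had 39.8, 51.2 and 76.2 CPM against 42.9, 68.1 and 121 CPM. Its highest values were in Mif-2-/-Apoe-/- mice 1 and 7, its lowest in an Apoe-/- mouse, and the log2 fold change was 0.36 (SE 0.21, 95% interval -0.07 to 0.80; adjusted p = 0.454). Gstt4 gave 6 counts over all 14 mice, 4 of them in Apoe-/- mice, and could not be tested. Of the 19 tested genes that lie up to 1 Mb from Ddt, Ddt itself not counted, Gstt3 was the 1 with an unadjusted p below 0.05. Which bases the Mif-2 allele lacks is not given in the sources used here, and the part of the deletion itself, or of the strain background carried with it, in the Gstt3 value was not tested.

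**Figure D3:**
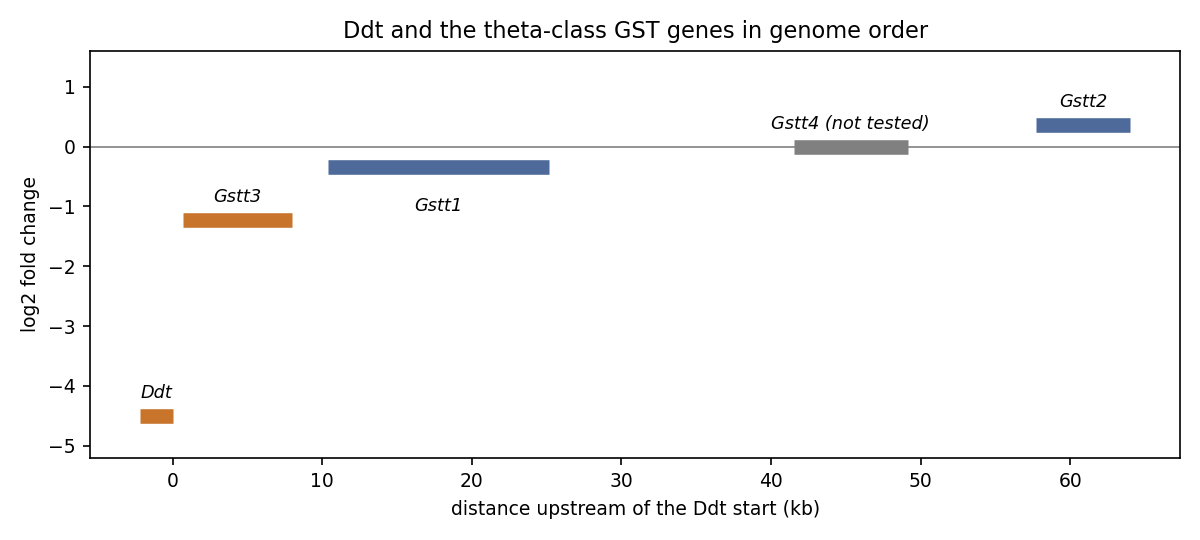
Ddt and the theta-class genes in genome order. The x axis is the distance upstream of the Ddt start in kb, the y axis the log2 fold change of Mif-2-/-Apoe-/- over Apoe-/-, each bar spans 1 gene, orange marks genes with an adjusted p below 0.05, and Gstt4 (grey, drawn at 0) was not tested. The values run from -4.50 for Ddt and -1.22 for Gstt3 to -0.33 for Gstt1 and 0.36 for Gstt2.

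Among the other GST genes the mu class, a group of abundant liver transferases, and the alpha class, which reduces lipid hydroperoxides and conjugates the aldehydes they give, held the next smallest p-values. The fold change was negative for 6 of 7 Gstm genes (median -0.32), with 0 called and 2 at an unadjusted p below 0.05. Gstm1, the leading mu-class transcript, made up 84.5% of the summed Gstm CPM. It had 628, 1007 and 2116 CPM in the Apoe-/- mice and 481, 642 and 1470 CPM in the Mif-2-/-Apoe-/- mice. Apoe-/- mouse 2 and Mif-2-/-Apoe-/- mouse 5 were the highest of their groups, and 3 Mif-2-/-Apoe-/- mice lay below every Apoe-/- mouse. The log2 fold change of Gstm1 was -0.55 (SE 0.27, 95% interval -1.11 to 0.00062; edgeR adjusted p = 0.389). It was -0.31 without Apoe-/- mouse 2 and -0.81 without Mif-2-/-Apoe-/- mouse 5.

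Gstm3 depended most on 1 liver. It had 180 CPM in Apoe-/- mouse 2 and between 17.3 and 36.1 CPM in the rest of that group, against 15.7 to 29.4 CPM in the Mif-2-/-Apoe-/- mice. With this mouse the fitted log2 value was -1.13 (SE 0.42; edgeR adjusted p = 0.254), and without it -0.23 (adjusted p = 0.613). Gstm2 had 25.2, 51.6 and 101 CPM against 19.5, 30.6 and 49.7 CPM. Its log2 fold change, -0.65 with all mice (SE 0.26; edgeR adjusted p = 0.289), became -0.38 without Apoe-/- mouse 2. The groups overlapped, although all 7 Mif-2-/-Apoe-/- mice lay below the Apoe-/- mean. Gsta2, an alpha-class transferase, had 6.36, 16.6 and 19.0 CPM against 2.84, 5.38 and 13.5 CPM. The Apoe-/- mice fell into 4 between 16.6 and 19.0 CPM and 3 between 6.36 and 8.82 CPM, and 4 Mif-2-/-Apoe-/- mice lay under every Apoe-/- mouse while mice 1, 5 and 7 lay between those clusters. The fitted difference of Gsta2 was -0.78 on the log2 scale (SE 0.34; edgeR adjusted p = 0.333). In Gsta2, 46.7% of the windows of the 3′ end also occur in other genes, so part of its tags may belong to Gsta1.

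Most other GST genes differed little between the groups. Gsta3, which conjugates aflatoxin epoxide in mice, had 212, 275 and 363 CPM in the Apoe-/- mice and 179, 307 and 525 CPM in the Mif-2-/-Apoe-/- mice (log2 fold change 0.10, SE 0.20, 95% interval -0.33 to 0.52). Its highest and lowest values both came from Mif-2-/-Apoe-/- mice. Gstz1, the maleylacetoacetate isomerase of tyrosine breakdown, was the steadiest of the 39, at 264 ± 15.3 and 271 ± 20.8 CPM (log2 fold change 0.04, SE 0.12, 95% interval -0.21 to 0.29). No mouse was outside 240 to 294 CPM. Gstk1, the kappa-class enzyme of mitochondria and peroxisomes, had 50.7, 68.0 and 85.5 CPM against 42.0, 53.5 and 67.1 CPM (log2 fold change -0.29, SE 0.15; edgeR adjusted p = 0.398). All 7 Mif-2-/-Apoe-/- mice lay below the Apoe-/- mean of Gstk1, and the ranges overlapped. Gstp1, the pi-class enzyme, had 92.2, 117 and 227 CPM against 82.6, 108 and 235 CPM (log2 fold change -0.07, SE 0.23). Its 3′ end shared 91.2% of windows with other genes, so Gstp1 and Gstp2 were also summed, which gave 161 ± 53.7 and 155 ± 65.6 CPM (SD, n = 7 each). The microsomal enzyme Mgst1, a membrane-bound glutathione transferase and peroxidase, was the most abundant transcript of the whole set with 34.5% of its CPM. It had 1432, 2192 and 2762 CPM in the Apoe-/- mice and 1126, 2428 and 3978 CPM in the Mif-2-/-Apoe-/- mice (log2 fold change 0.10, SE 0.24, 95% interval -0.40 to 0.60). The Mif-2-/-Apoe-/- mice spanned the Apoe-/- range on both sides. Mgst3, a related membrane enzyme that can make leukotriene C4, had 12.9, 17.5 and 42.5 CPM against 11.7, 16.8 and 48.2 CPM (log2 fold change 0.12, SE 0.29). The highest Mgst3 value came from Mif-2-/-Apoe-/- mouse 3, the liver with 4762 CPM of skeletal muscle genes, and without this mouse the log2 fold change was -0.20. The part of muscle RNA in that value was not tested.

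**Figure D4:**
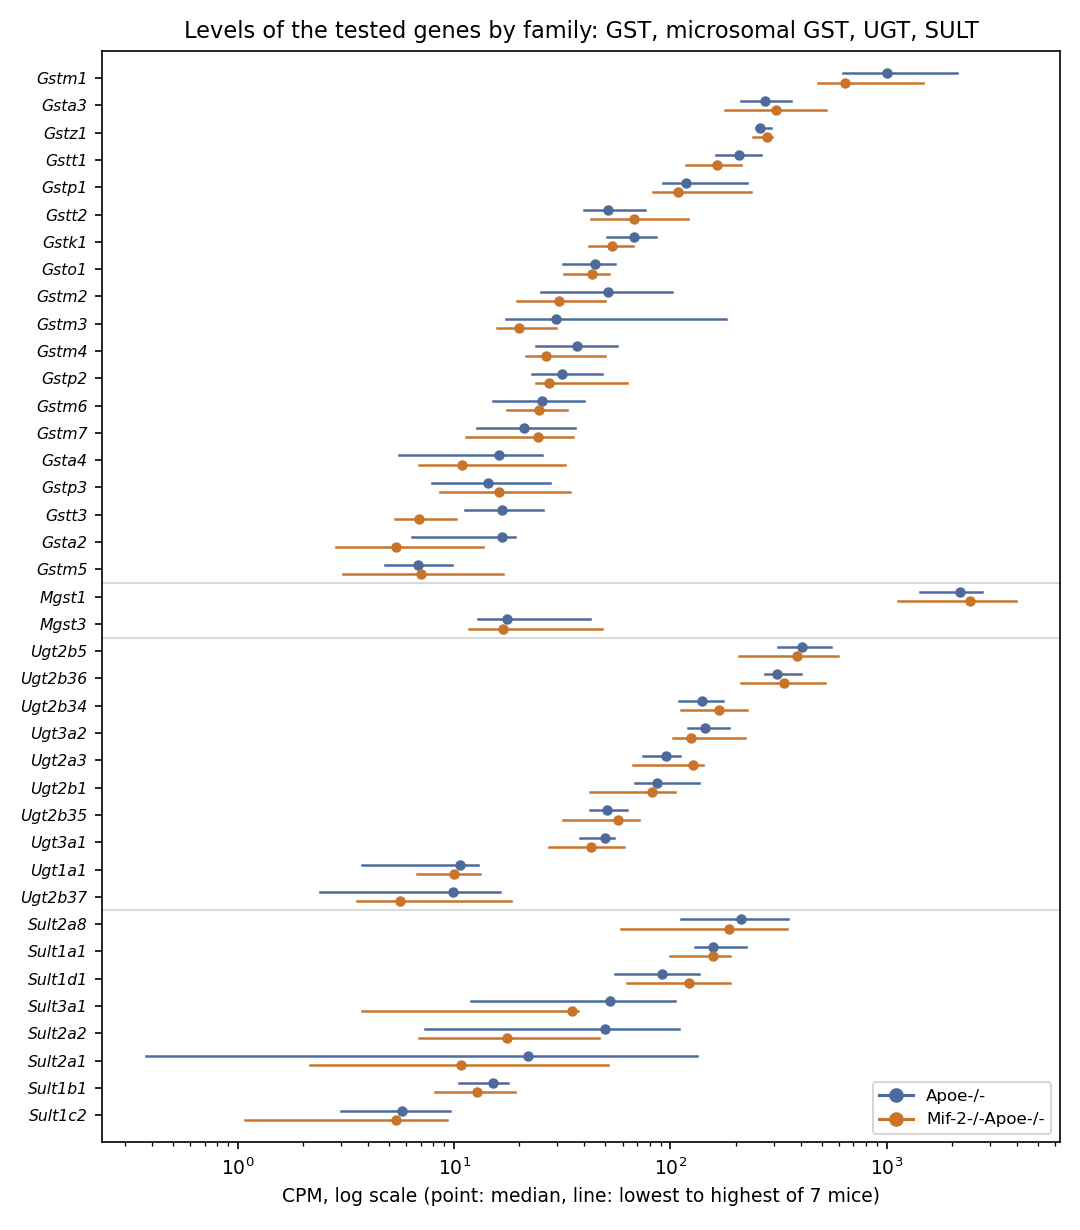
Level of each tested gene in CPM on a log axis, grouped by family (horizontal lines separate cytosolic and kappa GST, microsomal GST, UGT and SULT genes). Points are group medians and lines run from the lowest to the highest of 7 mice. Mgst1 (medians 2192 and 2428 CPM) and Gstm1 (1007 and 642 CPM) stand above the rest, and the Sult2a1, Sult2a2, Sult3a1 and Gstm3 lines are among the widest.

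Because Mgst1 led all members, its upstream window in RefSeq (GRCm38.p6, chr6:138140277-138140526, plus strand, 1 of 2 windows given) is shown. GENCODE M21 starts Mgst1 at 138140316, so most of this window, with both marked motifs, lies inside the gene as annotated there. Capitals mark the core of an antioxidant response element (TGACNNNGC, either strand), the element NRF2 binds, and a GC box (GGGCGG), without overlap.
Mgst1: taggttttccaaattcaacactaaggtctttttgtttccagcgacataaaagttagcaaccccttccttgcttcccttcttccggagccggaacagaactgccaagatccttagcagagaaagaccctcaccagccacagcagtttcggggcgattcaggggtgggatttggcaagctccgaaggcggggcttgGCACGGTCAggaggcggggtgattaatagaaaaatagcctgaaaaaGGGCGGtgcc
The antioxidant core was present in the windows of 4 of 57 genes (7.02%), namely Gsta3, Gstm5, Gstm7 and Mgst1, and of 11.5% of all genes with a window (10.2% of single windows). The tested genes among these had log2 fold changes of 0.10, 0.18, -0.01 and 0.10.

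In 1 Apoe-/- liver the alpha, mu and pi classes were high together. Of the Apoe-/- mice, mouse 2 was the highest for 9 of 10 tested alpha and mu genes and for 3 of 3 pi genes. In that mouse Gstm1 was 2.30 times, Gstm2 2.26 times, Gstm3 6.64 times and Gstp1 2.05 times the median of the other 6 Apoe-/- mice. Gsta1, an inducible alpha-class gene that was not tested, had 125 counts there of 214 over all mice, and no more than 7 counts in any Mif-2-/-Apoe-/- mouse. The same liver had the highest sum of cholangiocyte markers, 281 CPM where the other 6 Apoe-/- mice had 68.4 to 126 CPM. Spp1 alone gave 232 CPM of this sum. Krt19, another marker of that list, did not stand apart. It was at 7.84 CPM there, 7.74 CPM in Apoe-/- mouse 4 and 15.2 CPM in Mif-2-/-Apoe-/- mouse 3. Of the NRF2 targets outside the set, Srxn1 (45.9 CPM against at most 22.5), Hmox1 (47.8 against at most 21.8) and Ephx1 (338 against at most 237) were also highest in this mouse among Apoe-/- mice. Nqo1, Gclc, Gclm and Txnrd1 were not. The part of bile duct cells in these GST values was not tested.

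Among the Mif-2-/-Apoe-/- mice, mouse 5 had the highest Gstm1 (1470 CPM against at most 761) and Gstp1 (235 CPM against at most 137), but its alpha-class sum of 355 CPM lay within the 198 to 550 CPM of the group. In this mouse Gclc, the catalytic subunit for glutathione synthesis, was at 286 CPM against at most 139, and Ephx1, the microsomal epoxide hydrolase, at 345 CPM against at most 161. Srxn1 was also highest there, at 28.7 CPM against at most 19.9, while Nqo1, Hmox1 and Gclm lay within the range of the other mice of the group. Gstm3 did not stand apart there, at 29.4 CPM beside 29.4 CPM in mouse 3. With both livers left out, a choice made after seeing the data, Gstm1 had a log2 fold change of -0.55 (edgeR adjusted p = 0.177), Gstm2 -0.35 (adjusted p = 0.475) and Gstm3 -0.29 (adjusted p = 0.509). At an unadjusted p below 0.05 there were then 3 of 39 members (Gstm1, Gstt3 and Sult3a1), where 16.6% of all genes reached that level. The Gstt3 call was lost (-1.14, edgeR adjusted p = 0.0535), so 0 members were called, against 12 of all 9620 genes tested in that fit.

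**Figure D5:**
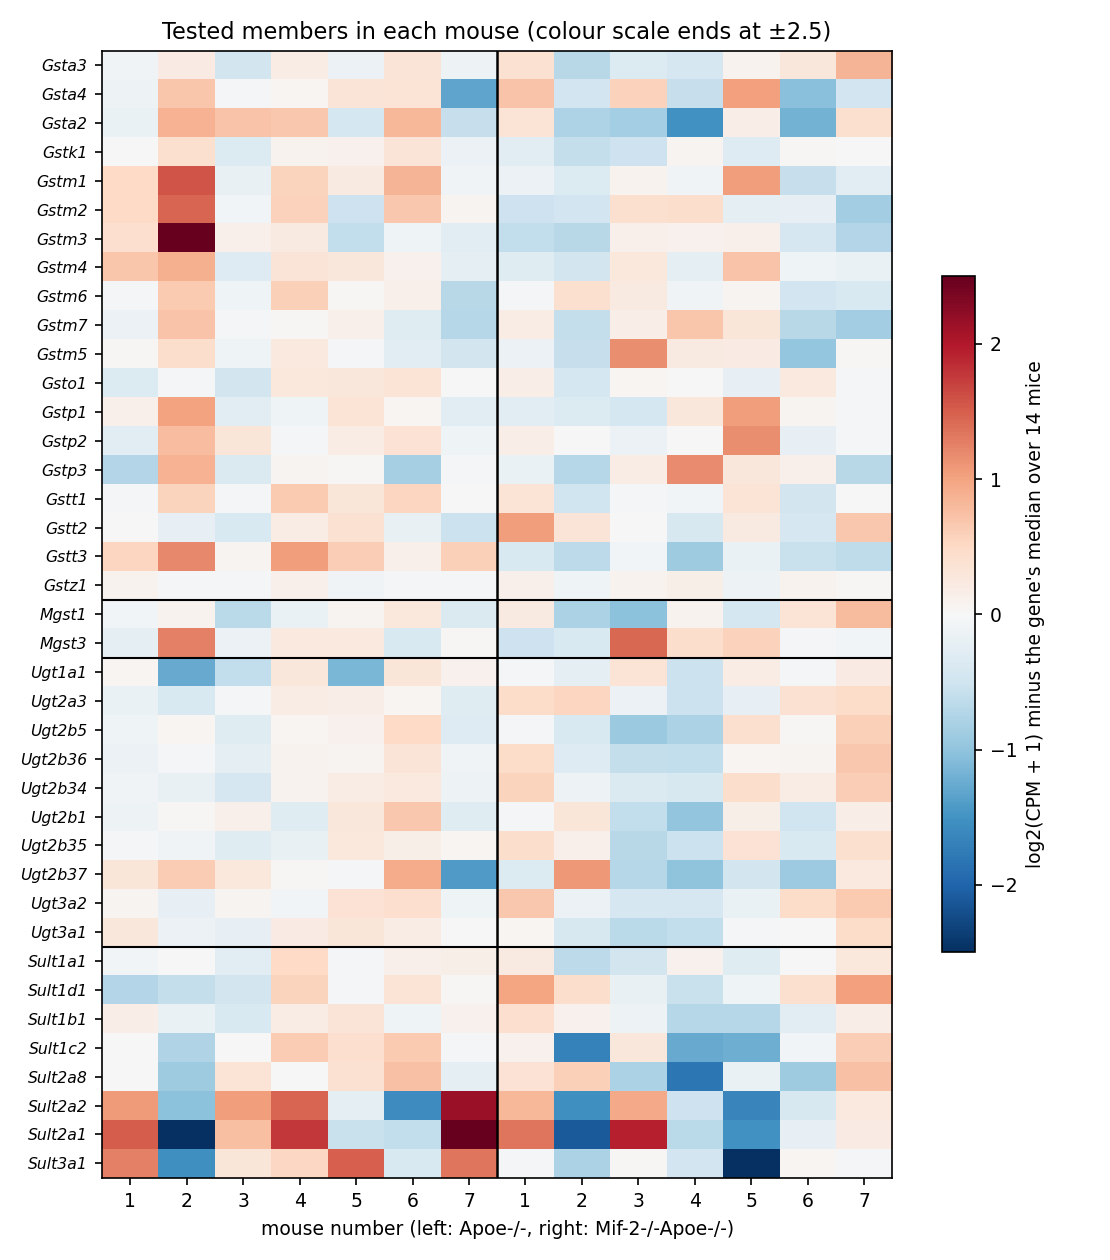
Each tested gene in each mouse, as log2(CPM + 1) minus the gene's median over the 14 mice (red above, blue below, colours end at ±2.5; the pseudocount of 1 serves the drawing only). Columns are mice 1 to 7 of each group, the vertical line separates Apoe-/- from Mif-2-/-Apoe-/-, and horizontal lines separate the families. Apoe-/- mouse 2 is red across the alpha, mu and pi genes, and the Sult2a1 and Sult2a2 genes vary widely within both groups.

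The UGT genes showed no difference that passed the test, with 0 of 10 at an unadjusted p below 0.05 and a lowest adjusted p of 0.496 (Ugt2b37). The Ugt2b genes, whose enzymes glucuronidate steroids and bile acids among others, led the family. Ugt2b5 had 315, 405 and 554 CPM in the Apoe-/- mice and 207, 387 and 595 CPM in the Mif-2-/-Apoe-/- mice (log2 fold change -0.08, SE 0.21, 95% interval -0.52 to 0.36). Ugt2b36 had 273, 310 and 400 CPM against 211, 334 and 517 CPM (0.03, SE 0.19, 95% interval -0.36 to 0.43). For both genes the Mif-2-/-Apoe-/- range enclosed the Apoe-/- range. Ugt2b34 (145 ± 22.9 and 168 ± 48.6 CPM, log2 fold change 0.21, SE 0.18) and Ugt2a3 (94.0 ± 14.4 and 112 ± 30.3 CPM, 0.24, SE 0.17) were similar. Ugt3a2, of a family that uses UDP-sugars other than glucuronic acid, had 148 ± 24.9 and 155 ± 52.9 CPM (0.07, SE 0.19). The spread was wider among Mif-2-/-Apoe-/- mice, as the sum of all 19 UGT genes was 1147 to 1708 CPM in Apoe-/- mice and 851 to 1961 CPM in Mif-2-/-Apoe-/- mice. Mouse 4, with the highest Saa2, was lowest in its group for 6 of 9 tested Ugt2 and Ugt3 genes, and mouse 7 was highest for 4. Mouse 3 was lowest for the other 3, and mouse 6, with the next highest Saa2, for 0. The Ugt1a genes share their last exons, and of their 8 members 7 had windows of the 3′ end that all occur in another gene, so tags cannot be told apart between them. The single exception was Ugt1a7c, whose longest transcript shared no such window. Other Ugt1a7c transcripts held windows of the Ugt1a6b and Ugt1a8 ends, so its tags may not all be distinct either. Summed, the Ugt1a genes had 13.5 to 38.96 CPM in Apoe-/- mice and 17.1 to 30.3 CPM in Mif-2-/-Apoe-/- mice. Ugt1a1, the bilirubin enzyme, had a log2 fold change of 0.27 (SE 0.28; edgeR adjusted p = 0.687).

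The SULT genes had the most negative median of the families, with 1 of 8 tested at an unadjusted p below 0.05 and 0 called. Sult3a1, a sulfotransferase with female-predominant expression in mouse liver, had 11.9, 52.5 and 105 CPM in the Apoe-/- mice and 3.75, 35.2 and 37.5 CPM in the Mif-2-/-Apoe-/- mice. Among Apoe-/- mice 5 of 7 were above the highest Mif-2-/-Apoe-/- mouse, while mice 2 and 6 lay within the other group's range. The means were 60.5 ± 35.6 and 27.9 ± 12.5 CPM (SD, n = 7 each), and the log2 fold change was -1.10 (SE 0.39, 95% interval -1.91 to -0.30; edgeR adjusted p = 0.240). It ran from -1.29 to -0.90 when single mice were left out, with adjusted p from 0.137 to 0.401. The lowest Sult3a1 values of both groups were in Apoe-/- mouse 2 and Mif-2-/-Apoe-/- mouse 5, the livers with the highest Gstm1. The window upstream of Sult3a1 is shown because this gene had the second smallest p of the set, and because STAT5 carries the growth hormone signal on which sex-dependent liver expression depends. It covers chr10:33857472-33857721 (GRCm38.p6, plus strand), and capitals mark a STAT core (TTCNNNGAA, a palindrome, overlapping no other motif searched).
Sult3a1: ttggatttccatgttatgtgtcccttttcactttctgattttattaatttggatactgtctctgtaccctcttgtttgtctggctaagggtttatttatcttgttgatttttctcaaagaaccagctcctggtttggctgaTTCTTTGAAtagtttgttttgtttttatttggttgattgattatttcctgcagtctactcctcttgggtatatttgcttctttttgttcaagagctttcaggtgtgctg
The STAT core was in the windows of 4 of 57 genes (7.02%), Gsta1, Gstm6, Sult3a1 and Ugt1a6a, and of 8.13% of all genes with a window (7.02% of single windows).

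The Sult2a genes, which sulfate bile acids and hydroxysteroids, included the most variable genes of the set, Sult2a1 and Sult2a2, with biological coefficients of variation of 0.875 and 0.598 beside a median of 0.280 over the 39 genes and 0.206 over all genes. Sult2a8, a bile acid sulfotransferase of mouse liver, was the highest SULT transcript with 112, 211 and 348 CPM in the Apoe-/- mice and 59.3, 187 and 346 CPM in the Mif-2-/-Apoe-/- mice (log2 fold change -0.18, SE 0.31, 95% interval -0.82 to 0.45). Its lowest value was in Mif-2-/-Apoe-/- mouse 4, which had the highest Saa2, and without mice 4 and 6, a choice made after seeing the data, the log2 fold change was 0.12. The other 7 Sult2a genes, summed because 6 of them share part of their 3′ ends, had 18.3, 92.9 and 301 CPM in the Apoe-/- mice and 18.3, 46.5 and 111 CPM in the Mif-2-/-Apoe-/- mice. The lowest values of the groups were alike, and the next highest Apoe-/- mouse after mouse 7 was at 143 CPM. Sult2a2 had 44.9 ± 36.0 and 23.7 ± 16.1 CPM. The fitted difference of Sult2a2, -0.84 on the log2 scale (SE 0.47; edgeR adjusted p = 0.444), became -0.47 without Apoe-/- mouse 7. Sult2a1 ran from 0.373 to 132 CPM in Apoe-/- mice and from 2.15 to 51.2 CPM in Mif-2-/-Apoe-/- mice (-0.90, SE 0.67). Sult2a7 was not tested, with 5 to 17 tags in each Apoe-/- mouse and 2 to 43 in each Mif-2-/-Apoe-/- mouse. It was at 14.9 and 26.9 CPM in Mif-2-/-Apoe-/- mice 4 and 5 and at most 9.56 CPM in the other 12 mice.

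The Sult1 genes, which act on phenols, catecholamines, estrogens and thyroid hormones, included the 1 tested SULT gene with a positive fold change. Sult1d1, a catecholamine sulfotransferase in mice, had 55.1, 90.9 and 136 CPM in the Apoe-/- mice and 62.9, 122 and 188 CPM in the Mif-2-/-Apoe-/- mice. Mif-2-/-Apoe-/- mice 1 and 7 were above every Apoe-/- mouse, the rest overlapped, and the log2 fold change was 0.45 (SE 0.24, 95% interval -0.06 to 0.96; edgeR adjusted p = 0.425). Sult1a1, the phenol sulfotransferase, had 166 ± 29.6 and 149 ± 35.3 CPM (-0.15, SE 0.16). The estrogen sulfotransferase Sult1e1 had 31 counts over all mice and was not tested.

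The 26 genes left untested held 0.876% of the counts of the set, with 1 to 214 counts each over all mice, so a difference in most of them was not detectable at this depth. They were 3 cytosolic GST genes, Mgst2, 9 UGT genes and 13 SULT genes. Testing every symbol without a low-count filter gave 7 calls among the 65 (Gstt3, Gstm3, Gsta1, Sult3a1, Sult2a1 and Sult2a2 negative, Sult2a7 positive). The same fit called 344 of all 36072 genes tested, and the fit with the filter 21 of 9684.

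Genes related to these enzymes, or lying near Ddt, gave 0 calls among 99 tested. They came from 9 lists: cofactor supply, deconjugation, other conjugation enzymes, GST and UGT relatives, xenobiotic receptors, NRF2 targets, CAR, PXR and AHR targets, exporters and genes near Ddt. In the edgeR fit 14 of the 99 had an unadjusted p below 0.05, a level that 12.9% of all genes reached. Of the 14, 10 had a negative and 4 a positive fold change. Of all genes, 5.49% had such a p with a negative and 7.37% with a positive fold change. DESeq2 on the same genes called 2, Abcc5 and Aldh1a1. For glucuronidation, Ugdh, which makes UDP-glucuronic acid, had 42.6 ± 11.2 and 29.9 ± 11.1 CPM (log2 fold change -0.51, SE 0.22; edgeR adjusted p = 0.330). Slc35d1, which carries this sugar into the endoplasmic reticulum, had 70.6 ± 7.4 and 56.5 ± 9.12 CPM (-0.33, SE 0.13; adjusted p = 0.289). All 7 Mif-2-/-Apoe-/- mice were below the Apoe-/- mean for Ugdh and 6 for Slc35d1. Of the conjugate exporters 4 of 13 had such a p, all negative. They were Abcc5 (-1.13, adjusted p = 0.0859, the lowest of the 99), Abcc1 (-0.75), Abcc4 (-0.49) and Abcc3 (-0.41). Nqo1, a quinone reductase read as an NRF2 target, had 9.33 ± 1.86 and 5.84 ± 1.64 CPM (-0.69, SE 0.22; adjusted p = 0.198), with all 7 Mif-2-/-Apoe-/- mice below the Apoe-/- mean, and it was the 1 of 10 NRF2 targets with such a p. Hpgds, a sigma-class GST that makes prostaglandin D2, had 7.19 ± 2.13 and 3.97 ± 1.51 CPM (-0.81, SE 0.27; adjusted p = 0.220). Positive fold changes were found for Nnmt (1.31), which methylates nicotinamide, Ggt6 (0.80), of the gamma-glutamyltransferase family, the glycine methyltransferase Gnmt (0.72) and the P450 reductase Por (0.63). The receptor Ppara had -0.69 and the retinaldehyde dehydrogenase Aldh1a1 -0.67, with adjusted p of 0.188 and 0.143. For deconjugation 0 of 6 genes had such a p.

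The sums of the lists that mark cell types and RNA handling overlapped between the groups. Such sums are led by the most abundant genes, so their overlap says little about the others. Malat1 led the handling list (means 3338 CPM in Apoe-/- and 2543 CPM in Mif-2-/-Apoe-/- mice) and Cd5l the Kupffer cell list (371 and 394 CPM). In several lists single genes had an unadjusted p below 0.05, a level that 12.9% of all genes reached. The part of these lists in the values above was not tested. Of the handling list, 4 of 6 tested genes had an unadjusted p below 0.05, all positive, led by Fos (2.10), Egr1 (1.33) and Junb (0.99), and its sum was 2179 to 6585 CPM in Apoe-/- and 1211 to 5668 CPM in Mif-2-/-Apoe-/- mice. Of the Kupffer cell list it was 4 of 8, all positive, with 1 call (Timd4, 1.30, edgeR adjusted p = 0.0373) and sums of 564 to 707 and 489 to 1042 CPM. Of the periportal list it was 6 of 8, 4 positive and 2 negative. Pericentral markers, which mark the zone where many conjugation genes are expressed, had 0 of 7 with such a p and a median log2 fold change of -0.09, with sums of 1918 to 4084 and 2405 to 4679 CPM. Cholangiocyte, stellate cell and lymphocyte lists had 0 of 2, 0 of 6 and 0 of 1, and the endothelial list 3 of 7. No marker present in the files was at 0 in all mice.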

How the data were processed

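Frozen livers gave RNA by RNeasy column, which was sequenced by prime-seq. The deposited files hold whole-number counts per gene symbol, made by the authors with the zUMIs pipeline on mm10 and not normalized, 541651 to 1531192 per library. Annotation release and use of strand are not given in the sources used here. Each of 14 mice had 2 libraries (28 in all), which were summed, since a mouse is the replicate. Genes were kept by filterByExpr, scaled by TMM and tested with the edgeR quasi-likelihood F test, two-sided, with Benjamini-Hochberg adjustment over 9684 genes. The fit held no covariate, because the RNA integrity values the study used are not in the labels. Positions came from GENCODE M21 (mm10, 34829 symbols matched) and promoter windows from RefSeq GRCm38.p6. The 3′ end (last 400 bases) of each member's longest protein-coding transcript was cut into 50-base windows. These windows were searched for in the transcripts of other genes.

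The text names the theta-class genes and Ddt, members called, the 5 most abundant members of each family, the 10 tested members with the smallest p, and up to 4 genes per companion list. Gstm5, Gstm6, Gstm7, Gstp2, Gsta1, Ugt1a6a, Ugt1a6b, Ugt1a8, Sult1e1, Sult2a1, Sult2a7, Ugt1a1, Ugt1a7c and Ugt2b37, and Saa2, Spp1, Krt19, Gclc, Gclm, Txnrd1, Srxn1, Hmox1, Malat1 and Cd5l, were named after their values were seen. Members, lists and tests were chosen with earlier results of these data known. Samples were grouped by their titles. Equal mouse numbers did not pair the groups: 2 of 7 pairs correlated above 0.1 (range -0.43 to 0.15). Alternatives covered scaling, filters, DESeq2, limma-voom, a replicate block, single libraries, rRNA and mitochondrial genes left out, and each mouse left out. The script was tested on simulated data. Fits ran in edgeR 4.0.16, DESeq2 1.42.0 and limma 3.58.1 under R 4.3.3, and summaries and plots in pandas 2.3.3 and matplotlib 3.10.9 under Python 3.11.15.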

Additional observations from a re-analysis of the deposited data

Results flagged for a closer look

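Among the named genes, 8 of 52 groups of 7 mice held a value whose gap to its nearest neighbour was large for the range of the group. For independent values from a normal distribution about 1 such group in 20 would be flagged. CPM values are skewed and several of these genes were high in the same mouse. The 8 of 52 can therefore not be read against that rate. In Apoe-/- mouse 2 these were Gstm3 at 180 CPM (next 36.1), Gstp1 at 227 CPM (next 143) and Mgst3 at 42.5 CPM (next 20.7). In Mif-2-/-Apoe-/- mouse 5 they were Gstm1 at 1470 CPM (next 761) and Gstp1 at 235 CPM (next 137). Mgst3 was at 48.2 CPM in Mif-2-/-Apoe-/- mouse 3 (next 26.2), the mouse with the high skeletal muscle genes. Gstt4 was at 1.66 CPM in Apoe-/- mouse 4 and 1.08 CPM in Mif-2-/-Apoe-/- mouse 7, which are 3 and 2 counts.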

How the results depend on the processing

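The 1 called member became 0 with a replicate block, with library 1 or the duplicate library alone and under DESeq2 with the study's gene filter, 0 in both fits added after seeing the data (without Mif-2-/-Apoe-/- mice 4 and 6, and without Apoe-/- mouse 2 and Mif-2-/-Apoe-/- mouse 5), 7 with no low-count filter, and 0 to 1 with single mice left out. Under DESeq2 with that filter Gstt3 received no adjusted p (log2 fold change -1.20, unadjusted p = 5.22e-06), and in library 1 alone it was not tested. With the replicate block it had -1.17 (adjusted p = 0.102), with the duplicate library -1.25 (0.110), and without mice 4 and 6 -1.09 (0.0771). No other call of a member was changed by the block, and 0 of 7 Apoe-/- mice correlated best with the Mif-2-/-Apoe-/- mouse of their own number. The 21 calls over all genes became 68 and 96 under DESeq2 on the same genes and with the study's filter, 344 with no low-count filter, 11 in library 1, 14 with the replicate block, 12 without Apoe-/- mouse 2 and Mif-2-/-Apoe-/- mouse 5, and 7 to 118 with single mice left out (118 without Mif-2-/-Apoe-/- mouse 2 and 7 without mouse 6). Library totals gave 7 higher and 14 lower calls in place of 13 and 8. The 0 companion calls became 1 with library totals, 2 and 1 under DESeq2 on the same genes and with the study's filter, 4 with no low-count filter, and 0 to 1 with single mice left out. With no low-count filter more genes were tested, and in single libraries and with mice left out there were fewer counts or mice. The other causes were not tested.

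Of the named members, 9 with log2 fold changes within 0.19 of 0 changed sign in at least 1 alternative, 26 values in all, and none of the 9 was called. With library totals Gsta3 had -0.0049, Gstz1 -0.065, Mgst1 -0.0087, Ugt2b36 -0.074 and Ugt3a2 -0.050. In library 1 Mgst3 had -0.088, Ugt2b36 -0.0035 and Ugt3a2 -0.052. Ugt2b36 had -0.025 under limma-voom and -0.032 with the replicate block. Without mice 4 and 6 Ugt2b5 had 0.023 and Sult2a8 0.12. With single mice left out the ranges were -0.075 to 0.20 for Gsta3, -0.30 to 0.13 for Gstp1, -0.080 to 0.22 for Mgst1, -0.20 to 0.43 for Mgst3, -0.22 to 0.027 for Ugt2b5, -0.11 to 0.13 for Ugt2b36 and -0.036 to 0.16 for Ugt3a2. At 6 to 20 counts of Gstt3 per Mif-2-/-Apoe-/- mouse, depth limits the firmness of that call.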
